A study of Danio rerio with 12 samples.

Results

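The macrophage lineage transcription factors described here are *spi1a*, *spi1b*, *irf8*, *cebpa*, *cebpb* and *runx1*. They were chosen by gene name from the gene table of an RNA-seq experiment on zebrafish larvae, ignoring case. All 6 were found, among 22962 genes. *runx1* stood in the table under 2 gene IDs, so that the 6 genes gave 7 entries, and all 7 were among the 16085 genes tested.

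Larvae of the transgenic line *mpeg1:GFP*, in which the *mpeg1* promoter drives GFP in macrophages and microglia, were used at 4 dpf, and cells with GFP were sorted by FACS from their heads. Larvae at 2 hours post injury (2 hpi, 3 libraries, replicates 1, 2 and 4) had the optic tectum, the visual centre of the midbrain, pierced with a metal pin, and sham larvae (6 libraries, replicates 1 to 6) were anaesthetised and embedded without injury. Both groups carried the same transgene and had the same age. Each library came from a pool of about 180 larvae, so that microglia, peripheral macrophages and any other sorted cell contributed to 1 value. The comparison asks which genes the sorted cells express at another level shortly after a neural injury.

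Values are CPM, the reads on a gene relative to the size of the library, scaled with TMM factors that even out libraries of different composition. Reads on genes were between 6754699 and 7156275 at 2 hpi, against 6868772 to 8180104 in sham larvae. A log2 fold change (log2FC) was estimated with limma on log2(CPM + 0.5) for 2 hpi over sham, and a gene was called when its FDR, adjusted over all genes tested, was below 0.01. Of the genes tested, 2.75% were called, 2.13% as higher and 0.628% as lower at 2 hpi. Sham replicate 3 stood apart from all other libraries in a principal component analysis, and values without it are given where they matter. *mpeg1.1* itself was at 2657 ± 90.8 CPM at 2 hpi and 2527 ± 180 CPM in sham larvae (SD, n = 3 and 6). Markers of neutrophils were also at high levels in both groups, with *mpx* at 1754 ± 339 CPM and *npsn* at 3573 ± 355 CPM at 2 hpi, against 2187 ± 253 and 3930 ± 397 CPM in sham larvae. In pooled cells like these, fewer cells of a type and less RNA per cell cannot be told apart. For RT-qPCR the study paired cDNA of injured and sham larvae made on the same day, some of it from these samples, but which libraries share a day is not stated. P-values set the difference between the groups against the spread between these samples, after the authors had left out 3 other libraries at 2 hpi.

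PU.1, an ETS factor, opens the myeloid programme of blood progenitors, and zebrafish have a pair of genes for it, *spi1b* and *spi1a*. IRF8 acts with PU.1 and is needed for macrophages and microglia to form in zebrafish. C/EBP-alpha and C/EBP-beta are bZIP factors of myeloid cells, of which the first drives commitment and the second takes part in inflammatory gene expression in mammals, and RUNX1 is required for definitive blood stem cells.

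Of the 6 factors, *cebpb* and *spi1b* were called higher at 2 hpi and none was called lower. Of all genes tested, 2.13% were called higher and 0.628% lower. *cebpb* was 2.14-fold higher and *spi1b* 1.41-fold higher. In these 2 genes, no 2 hpi library overlapped the sham libraries with TMM scaling, and 5.73% of all genes tested showed this with the same direction. On scaling by library size alone the groups overlapped for *spi1b*. With TMM scaling, for no entry did all 2 hpi libraries lie below all sham libraries, which was the case for 4.61% of all genes tested. The other 5 entries did not reach the threshold, 2 of them with a positive and 3 with a negative log2FC. Before adjustment, 4 of the 7 entries had p below 0.05, against 17.6% of all genes tested. The factors were chosen with earlier results of these data known, and *runx1* gave 2 of the entries. These shares are therefore not a test of the set. The median log2FC of the 7 entries was 0.14, against -0.02 for all genes tested.

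**Figure D1:**
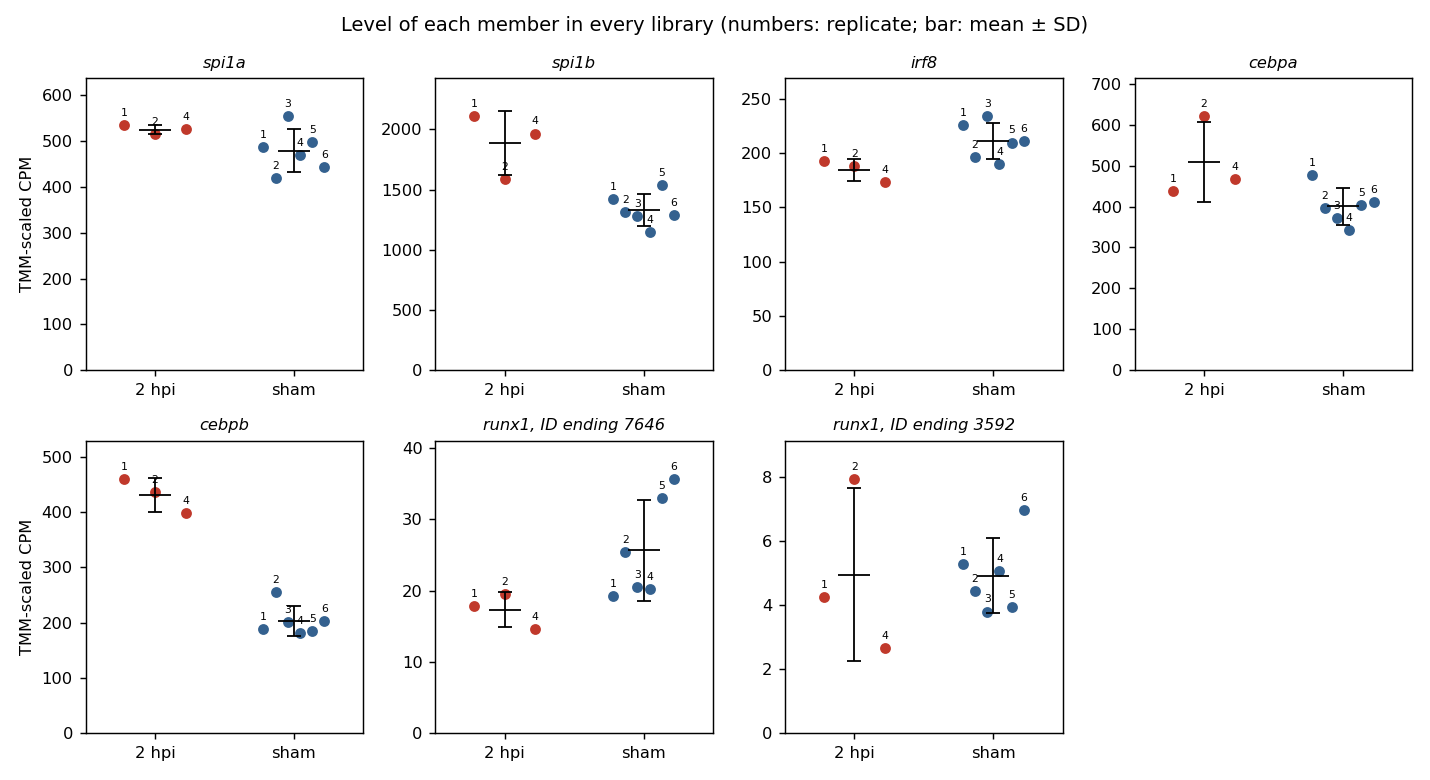
Each panel plots 1 entry, with the TMM-scaled CPM on a linear axis from 0, the 3 libraries at 2 hpi on the left and the 6 sham libraries on the right. Points carry their replicate number and the black bar is the mean ± SD. For *cebpb* the 2 hpi libraries lay between 398 and 460 CPM and the sham libraries between 181 and 256 CPM.

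Of the PU.1 pair, *spi1b* was called and *spi1a* was not. *spi1b* (ENSDARG00000000767), the copy that drives early myeloid development in zebrafish, had 2108, 1589 and 1966 CPM in 2 hpi replicates 1, 2 and 4. In sham larvae its lowest, median and highest levels were 1144, 1304 and 1540 CPM. All 3 libraries at 2 hpi lay above every sham library, although 2 hpi replicate 2 exceeded the highest sham library, replicate 5, only slightly. The log2FC was 0.50 (SE 0.11, 95% interval 0.27 to 0.73, limma FDR = 0.00751), and the two-sided exact permutation test over the 84 splits of 3 from 9 libraries gave p = 0.0119, the smallest it can give. The call lay close to the threshold. It was lost on scaling by library size alone (log2FC 0.38, FDR = 0.0318), without the filter on low reads (FDR = 0.0279), and when sham replicate 2, 3, 4 or 6 or 2 hpi replicate 1 or 4 was left out, with limma FDR values between 0.0104 and 0.0827. The log2FC was positive throughout. On scaling by library size alone, 2 hpi replicate 2 (10232 of 6754699 reads) no longer exceeded sham replicate 5 (10934 of 6868772 reads). The exact permutation p was then 0.0238. In the RefSeq annotation of GRCz12tu, another build than that of the table, *spi1b* overlaps *si:ch73-314g15.3*. That gene was at 119 ± 10.6 CPM at 2 hpi and 95.0 ± 12.7 CPM in sham larvae. How reads on a shared stretch were assigned was not tested.

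*spi1a* (ENSDARG00000067797), the other PU.1 gene, had 535, 515 and 525 CPM in 2 hpi replicates 1, 2 and 4. The sham libraries reached from 420 to 554 CPM, with a median of 479 CPM. All 3 values at 2 hpi lay above the sham median, and sham replicate 3 was above all of them. The log2FC was 0.14 (SE 0.11, 95% interval -0.09 to 0.36, limma FDR = 0.563), so that a rise of up to 1.28-fold and a fall to 0.943-fold both lie within the interval. Without sham replicate 3 the groups did not overlap, as for 7.05% of all genes tested, with an exact permutation p of 0.0357 over 56 splits, but the limma FDR was still 0.371.

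The log2 ratio of *spi1a* over *spi1b* within each library, in which the scaling between libraries cancels, was -1.98, -1.63 and -1.90 in 2 hpi replicates 1, 2 and 4. Among the sham libraries it reached from -1.65 to -1.21, and 2 hpi replicate 2 lay inside this range. The means were -1.84 ± 0.19 at 2 hpi and -1.47 ± 0.19 in sham larvae (SD, n = 3 and 6), a difference of -0.36 with p = 0.0595 in the two-sided exact permutation test. The difference was therefore not separated from the spread between libraries. In the same test p became 0.0357 when either sham replicate 2 or 2 hpi replicate 2 was left out. Without 2 hpi replicate 2, the overlapping library, this was the smallest p the test can give.

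*irf8* (ENSDARG00000056407), the IRF factor that favours macrophages over neutrophils in zebrafish, had 193, 188 and 173 CPM in 2 hpi replicates 1, 2 and 4. Its lowest, median and highest sham levels were 190, 211 and 234 CPM. All 3 libraries at 2 hpi were below the sham median, and 2 hpi replicates 2 and 4 were below every sham library, while 2 hpi replicate 1 overlapped with sham replicate 4. The log2FC was -0.19 (SE 0.12, 95% interval -0.44 to 0.05), with limma FDR = 0.425 and an unadjusted p = 0.0476 in the two-sided exact permutation test. Without sham replicate 3 the exact permutation p was 0.0536. With scaling by library size alone the exact permutation p was 0.0119, the smallest it can give, and the limma FDR was 0.106. With upper quartile scaling the exact permutation p was 0.0595, and with TMM it was 0.0357 to 0.143 when each library was left out. *irf8* did not pass the limma test under any of these scalings, and its interval with TMM reaches down to 0.739-fold.

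The strongest change among the 6 factors was in *cebpb* (ENSDARG00000042725). Its levels were 460, 436 and 398 CPM in 2 hpi replicates 1, 2 and 4. The sham libraries had a lowest level of 181, a median of 195 and a highest level of 256 CPM. Every library at 2 hpi lay far above every sham library, and sham replicate 2 stood apart from the other 5 sham libraries, which lay between 181 and 203 CPM. The means were 431 ± 31.2 CPM at 2 hpi and 202 ± 27.5 CPM in sham larvae (SD, n = 3 and 6). The log2FC was 1.097 (SE 0.12, 95% interval 0.84 to 1.35, limma FDR = 3.46e-06), that is 2.14-fold with an interval of 1.79 to 2.56, and the exact permutation test gave its smallest p, 0.0119. *cebpb* was called under all 20 alternatives in scaling, filter, tool and libraries, with log2FC between 0.98 and 1.17. It overlaps an uncharacterised gene, LOC137496363, in the RefSeq annotation of GRCz12tu.

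*cebpa* (ENSDARG00000036074), needed for granulocytes to form in mammals, had 438, 620 and 466 CPM in 2 hpi replicates 1, 2 and 4. Its lowest, median and highest sham levels were 342, 401 and 478 CPM. The 3 libraries at 2 hpi lay above the sham median, but 2 hpi replicate 2 alone exceeded all sham libraries. The log2FC was 0.33 (SE 0.13, 95% interval 0.07 to 0.59), with limma FDR = 0.144 and an unadjusted p = 0.0357 in the two-sided exact permutation test. Without sham replicate 3 the exact permutation p was 0.0536. Without 2 hpi replicate 2 the log2FC was 0.18, with a limma FDR of 0.552. With scaling by library size alone the exact permutation p was 0.167 and the limma FDR was 0.370. *cebpa* overlaps LOC141375405 in the RefSeq annotation of GRCz12tu.

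As for the PU.1 pair, the ratio of the 2 C/EBP genes was compared between the groups. The log2 ratio of *cebpb* over *cebpa* was 0.07, -0.51 and -0.23 in 2 hpi replicates 1, 2 and 4, against -1.34 to -0.63 over the sham libraries. The groups did not overlap, although 2 hpi replicate 2 and sham replicate 2 lay near each other. The means were -0.22 ± 0.29 at 2 hpi and -0.99 ± 0.24 in sham larvae (SD, n = 3 and 6), and the ratio was 1.70-fold higher at 2 hpi (difference 0.76, p = 0.0119, two-sided exact permutation test). Leaving out each library in turn gave differences between 0.62 and 0.91. The rise of *cebpb* described above enters this ratio, which is not independent of it. A ratio between different genes is not corrected for their lengths, and only its difference between groups is read here.

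**Figure D2:**
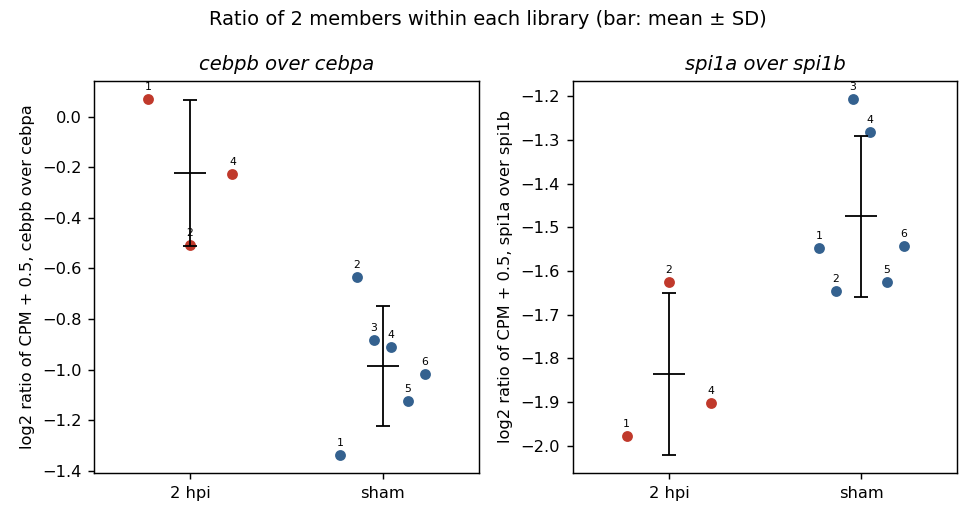
The y axis is the log2 ratio of (CPM + 0.5) of 1 gene over another within a library, for *cebpb* over *cebpa* and *spi1a* over *spi1b*, with the 2 hpi libraries on the left of each panel and the sham libraries on the right. Points are libraries with their replicate number and bars are the mean ± SD. The first ratio separated the groups, at -0.22 ± 0.29 for 2 hpi and -0.99 ± 0.24 for sham, and the second did not.

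*runx1* was the factor with the lowest read support, and its 2 gene IDs are uncertain because the reads of 1 gene may be divided between them. RefSeq lists 1 gene of this name, which overlaps *mir459* in GRCz12tu. The entry ENSDARG00000087646, with between 100 and 256 reads per library, had 17.8, 19.6 and 14.7 CPM in 2 hpi replicates 1, 2 and 4. Its lowest, median and highest sham levels were 19.2, 22.9 and 35.7 CPM. All values at 2 hpi were below the sham median, 2 hpi replicate 2 overlapped with sham replicate 1, and sham replicates 5 and 6 were the highest. The log2FC was -0.52 (SE 0.25, 95% interval -1.03 to -0.01), with limma FDR = 0.273 and p = 0.0952 in the two-sided exact permutation test. The entry ENSDARG00000103592 rested on 18 to 51 reads per library. It had 4.25, 7.92 and 2.64 CPM in 2 hpi replicates 1, 2 and 4, against sham levels between 3.79 and 6.96 CPM. The 2 hpi libraries held both the highest and the lowest value, and the log2FC of -0.08 (SE 0.41, limma FDR = 0.948) changed sign in 4 of the 20 alternatives. Summed over both entries, *runx1* was at 22.3 ± 5.09 CPM at 2 hpi and 30.6 ± 7.62 CPM in sham larvae (SD, n = 3 and 6, p = 0.131, two-sided exact permutation test). *runx1* did not pass the test under either entry, and the sham libraries of ENSDARG00000087646 themselves reached from 19.2 to 35.7 CPM.

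**Figure D3:**
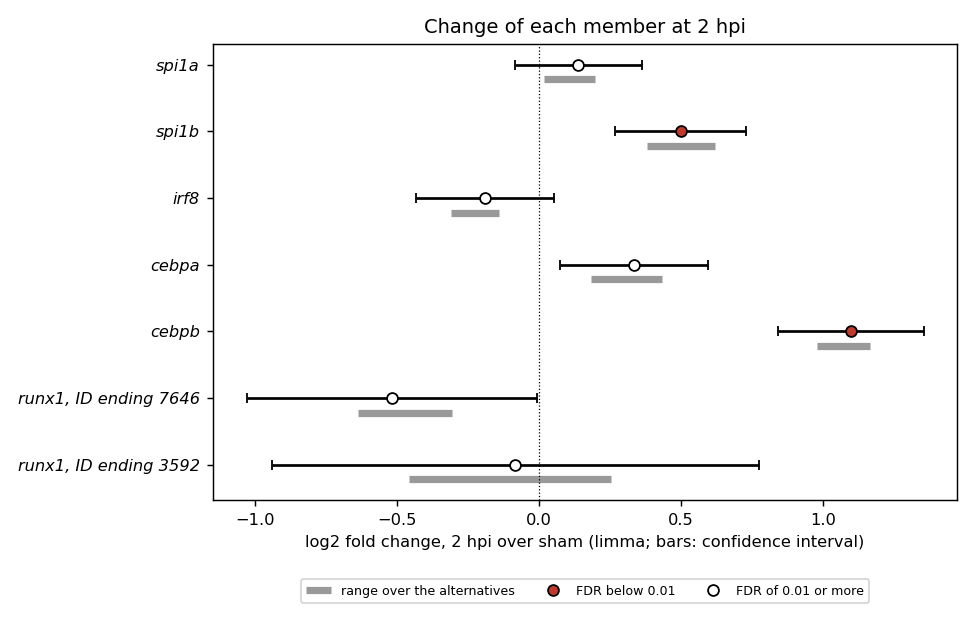
The x axis is the log2FC of 2 hpi over sham from limma, with the 95% interval as a thin bar, for each of the 7 entries. Filled points have an FDR below 0.01, and the grey bar below each point spans the log2FC over the 20 alternatives. The intervals of *spi1b* (0.27 to 0.73) and *cebpb* (0.84 to 1.35) lie well above 0, and that of *irf8* spans 0.

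The spread between replicates differed among the factors. The coefficient of variation over the sham libraries was between 7.82% for *irf8* and 13.6% for *cebpb* among the 5 factors other than *runx1*, against a median of 12.2% over the 1846 tested genes with at least 100 CPM. The value of *cebpb* rested on sham replicate 2, without which it was 5.04%, the lowest of the 5 factors. Both *runx1* entries varied more, at 27.6% and 23.8%. At 2 hpi *spi1a* varied least, by 1.91%, and *cebpa* varied by 19.3%, with 2 hpi replicate 2 far above the others.

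The wider families of these factors were read from lists that were written with earlier results of these data known. Without the 6 factors, 2 genes of the 6 transcription factor lists were called higher and 3 lower, of 84 entries tested, with a median log2FC of 0.04. For these counts and those of each list below, the shares of all genes tested were 2.13% called higher and 0.628% called lower. An unadjusted p below 0.05 with limma was found for 17.6% of all genes tested, and for 24 of the 84 entries. By list, with the 6 factors included, the counts were 7 of 23 ETS, 2 of 11 IRF and 3 of 5 C/EBP entries. They were 5 of 10 for MAF and BACH, 5 of 20 for RUNX and blood stem cell factors, and 6 of 22 for the other factors.

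In the ETS family, 2 of 23 tested genes were called higher, *spi1b* and *ets2*, and 1 lower, *fli1b*, with a median log2FC of 0.14. *ets2*, an ETS factor that acts downstream of Ras and MAP kinase signalling, had 103, 121 and 107 CPM in 2 hpi replicates 1, 2 and 4, against 35.4 to 65.6 CPM in sham larvae. The groups were far apart (log2FC 1.31, limma FDR = 5.2e-05). *fli1b*, an ETS factor of endothelial and blood cells, had 251, 205 and 235 CPM in 2 hpi replicates 1, 2 and 4, against 313 to 413 CPM in sham larvae. All 2 hpi libraries were lower (log2FC -0.60, limma FDR = 0.00253), but without 2 hpi replicate 2 or 4 the FDR was above the threshold, at most 0.0274. The IRF family had 0 called genes of 11 tested with limma, and 2 with an unadjusted p below 0.05. Of its members 4 had a positive and 7 a negative log2FC, with a median of -0.19.

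In the C/EBP family *cebpb* alone was called of 5 tested genes, and the median log2FC was 0.29. *cebp1*, a factor of zebrafish neutrophils, was at 16.1 ± 2.87 CPM at 2 hpi and 24.2 ± 5.51 CPM in sham larvae (SD, n = 3 and 6, limma FDR = 0.227). In the MAF and BACH family 1 of 10 tested genes was called, and the median was 0.04. This gene was *bach1b*, one of the zebrafish genes for BACH1, a repressor that is released from DNA by heme in mammals. It had 239, 250 and 260 CPM in 2 hpi replicates 1, 2 and 4, against 91.6 to 122 CPM in sham larvae (log2FC 1.22, limma FDR = 1.14e-06). The groups did not overlap, and *ets2* and *bach1b* kept their calls under all 20 alternatives.

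Among RUNX and blood stem cell factors, 1 of 20 tested entries was called lower and 0 higher, with a median log2FC of -0.25. *ldb1a*, an adaptor of LIM-domain complexes that also bind GATA and TAL1 factors, had 23.2, 21.1 and 24.3 CPM in 2 hpi replicates 1, 2 and 4, against 36.9 to 54.0 CPM in sham larvae. It was lower in every 2 hpi library (log2FC -0.96, limma FDR = 0.00209), with an FDR of up to 0.0138 with the replicate block or without 2 hpi replicate 1 or 2. Of 22 other macrophage and microglia factors, *mef2b*, a MADS-box factor, was called lower and 0 were called higher, and the median was 0.05. *mef2b* had 44.9, 33.8 and 52.9 CPM in 2 hpi replicates 1, 2 and 4, against 62.3 to 114 CPM in sham larvae (log2FC -0.91, limma FDR = 0.00368). This call was lost with limma-voom and without sham replicate 2, 2 hpi replicate 1 or 2 hpi replicate 2, at FDR values up to 0.04.

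**Figure D4:**
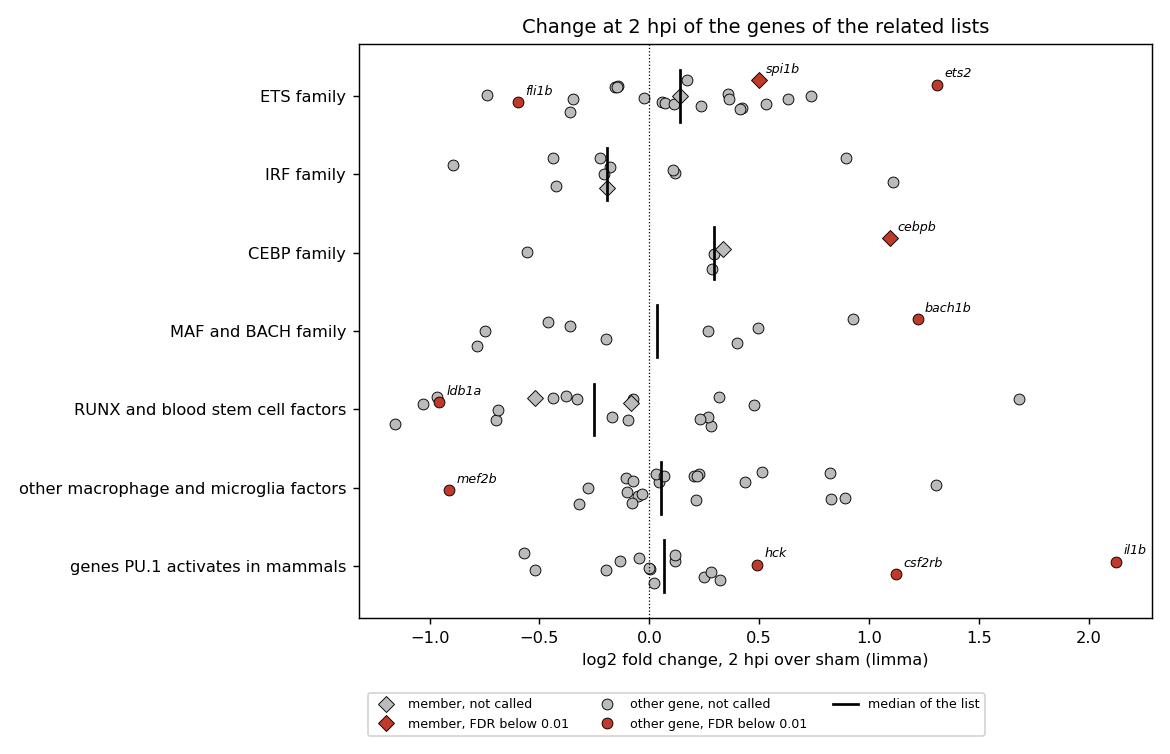
Each point is a tested entry of a related list, with its log2FC of 2 hpi over sham from limma on the x axis and random vertical scatter within a list. Diamonds are the 6 factors, red points have an FDR below 0.01 and carry their name, and black lines are the median of each list, which lies between -0.25 and 0.29. The calls lie on both sides of 0 in the ETS family.

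Genes that PU.1 activates in mammals were read in the same way. Of 16 tested, 3 were called higher and 0 lower, against 2.13% and 0.628% of all genes tested. The median log2FC was 0.07, and 10 had a positive log2FC. An unadjusted p below 0.05 with limma was found for 6 of the 16, against 17.6% of all genes tested. *il1b*, the cytokine interleukin-1 beta, had 327, 368 and 385 CPM in 2 hpi replicates 1, 2 and 4, against 55.5 to 117 CPM in sham larvae (log2FC 2.13, limma FDR = 4.86e-08). *csf2rb*, which encodes the shared beta chain of the GM-CSF receptor in mammals, had 477, 511 and 619 CPM in 2 hpi replicates 1, 2 and 4, against 201 to 292 CPM in sham larvae (log2FC 1.12, limma FDR = 5.26e-06). Both were well separated and were called under all 20 alternatives. *hck*, a Src family kinase of myeloid cells, had 975, 831 and 871 CPM in 2 hpi replicates 1, 2 and 4, against 571 to 717 CPM in sham larvae (log2FC 0.49, limma FDR = 0.00577). The call of *hck* was lost in 9 alternatives, at FDR values up to 0.0614. The receptor genes *csf1ra* and *csf1rb*, which are PU.1 targets and mark the macrophage lineage, were not called. They were at 2703 ± 267 and 865 ± 87.9 CPM at 2 hpi and 2276 ± 252 and 1005 ± 212 CPM in sham larvae (SD, n = 3 and 6), and the receptor gene *csf3r* was at 642 ± 52.0 CPM at 2 hpi and 633 ± 42.6 CPM in sham larvae.

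Markers of the cell types that the sort could hold were set beside these values. Of all genes tested, 2.13% were called higher and 0.628% lower, and 17.6% had an unadjusted p below 0.05 with limma. Summed over 12 markers of the macrophage lineage, the libraries had 9811 to 10741 CPM at 2 hpi and 8676 to 10527 CPM in sham larvae, and 0 of 12 were called with limma, 2 having an unadjusted p below 0.05. Of the 12, 11 had a positive and 1 a negative log2FC, with a median of 0.08, against -0.02 for all genes tested. Microglia markers summed to 11989 to 15520 CPM at 2 hpi and 9930 to 14332 CPM in sham larvae. Of 11 tested, *slc7a7* and *ctss2.1* were called higher, and *apoeb* was at 5814 ± 1344 CPM at 2 hpi and 4837 ± 1206 CPM in sham larvae (SD, n = 3 and 6). Of the 11, 9 had a positive and 2 a negative log2FC, with a median of 0.16. Neutrophil markers summed to 9660 to 12743 CPM at 2 hpi and 8191 to 11479 CPM in sham larvae. Of 10 tested, *mmp9* and *mmp13a*, genes for matrix metalloproteinases, were called higher (log2FC 2.18 and 0.77). Their mean levels were 1850 and 3416 CPM at 2 hpi, against 417 and 2036 CPM in sham larvae, and the sum includes both. *mpx* and *npsn* had a negative log2FC that was not called (-0.33 and -0.14). In all, 6 of the 10 had a positive and 4 a negative log2FC, with a median of 0.22. An unadjusted p below 0.05 with limma was also found for 6 of the 10. These were *mmp9*, *mmp13a*, *vmp1* and *s100a10b* with a positive log2FC, and *mpx* and *cebp1* with a negative log2FC. C/EBP factors are also expressed in neutrophils, and the part of these cells in the change of *cebpb* was not tested.

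The summed levels of the other markers overlapped between the groups. Markers of neurons summed to 55.6 to 83.4 CPM at 2 hpi and 45.5 to 119 CPM in sham larvae, those of keratinocytes to 94.3 to 153 and 61.9 to 147 CPM, those of erythrocytes to 120 to 202 and 105 to 230 CPM, and those of lymphocytes to 30.0 to 46.2 and 27.2 to 59.7 CPM. Markers of neural progenitors and glia summed to 424 to 699 CPM at 2 hpi and 403 to 759 CPM in sham larvae, mostly *glula* (mean 505 and 504 CPM), whereas *gfap* was at or below 3.52 CPM in every library, and those of thrombocytes and blood progenitors to 101 to 119 and 98.8 to 142 CPM. No marker of these 6 lists was called with limma, and 3 had an unadjusted p below 0.05. *elavl3*, of neurons, was at 28.2 ± 15.3 CPM at 2 hpi and 32.7 ± 23.8 CPM in sham larvae, and *krt4*, of keratinocytes, at 35.7 ± 1.85 and 33.1 ± 6.09 CPM. *rag1*, of lymphocytes, was at 13.3 ± 2.99 CPM at 2 hpi and 8.19 ± 5.67 CPM in sham larvae (SD, n = 3 and 6 throughout). *hbae1.1*, of erythrocytes, was at or below 0.367 CPM in every library. *itga2b*, of thrombocytes, was matched to no entry and was not analysed here.

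For each factor, the 2 genes with the most similar pattern over the 9 libraries were sought among 11408 tested genes with at least 5 CPM, by the root mean square difference of z-scored log2 levels. This search is a description and uses the same libraries as the tests. Nearest to *cebpb* were *gclc*, which encodes the catalytic subunit of glutamate-cysteine ligase (difference 0.217), and *itgae.2* (0.221). *gclc* was at 101 ± 3.33 CPM at 2 hpi and 53.5 ± 5.53 CPM in sham larvae (SD, n = 3 and 6). Nearest to *spi1b* were *ca2*, a carbonic anhydrase gene (0.165), and *mllt10* (0.206). Nearest to *cebpa* was *cebpg* (0.339), another C/EBP gene and its nearest protein-coding neighbour on one side in the RefSeq annotation of GRCz12tu, followed by *si:ch211-195j11.8* (0.432). *cebpg* was at 41.0 ± 5.98 CPM at 2 hpi and 33.5 ± 4.14 CPM in sham larvae (SD, n = 3 and 6), and was not called (limma FDR = 0.464). For *spi1a* the nearest were *clptm1* (0.328) and *hipk3b* (0.335), and for *irf8* they were *cox11* (0.293) and *nt5dc3* (0.350). For *runx1* they were *spc24* (0.341) and *map4k3a* (0.361) under ENSDARG00000087646, and *snrpg* (0.308) and *thoc7* (0.365) under ENSDARG00000103592.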

How the data were processed

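RNA of the sorted cells was turned into amplified cDNA (Ovation RNA-Seq System V2) and then into TruSeq DNA Nano libraries. According to the submitters' processing notes and the paper's methods, the authors used Cutadapt 1.9, STAR 2.5.2b, GRCz10, featureCounts 1.5.1 on exons and edgeR 3.20.1, removed genes with mostly near-zero counts and applied TMM. The strand setting and the annotation release are not given in the sources used here. The authors deposited 1 signal value per gene and library, a TMM-scaled CPM. Columns of group means, fold changes, p-values and FDR from the authors' own comparison were not used. The authors left out 3 further libraries at 2 hpi for high duplication, low mapping and poor clustering in a principal component analysis. These were not analysed here, so that the spread at 2 hpi is that of the libraries kept.

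Values were divided by what 1 read was worth to recover reads, of which 100% were whole within 0.01. They were used for the filter (filterByExpr, minimum count 10, minimum total 15) and for count-based alternatives. A level of 3 reads was worth 0.349 to 0.466 CPM. Limma 3.58.1 (R 4.3.3) was fitted to log2(CPM + 0.5) with the condition alone and with a trend in the variance, on a scale that understates changes of low genes, with Benjamini-Hochberg adjustment and the study's threshold of FDR 0.01. Because the table holds scaled values, the study's own edgeR quasi-likelihood test was an alternative, on recovered reads (edgeR 4.0.16). Single values were compared with exact permutation tests. The other alternatives were DESeq2 1.42.0, limma-voom, other scalings, filters, pseudocounts and thresholds, a replicate block and leaving out each library.

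The members and lists were chosen with earlier results of these data known, and a further member is not reported here. Named genes were the members, genes of the related lists with FDR below 0.01, the 2 nearest patterns of each member and defining markers. *cebp1*, *csf1ra*, *csf1rb*, *csf3r*, *glula*, *gfap*, *npsn*, *mmp9*, *mmp13a*, *vmp1*, *s100a10b*, *slc7a7*, *ctss2.1* and *si:ch73-314g15.3* were named after their values were seen. Names of the lists were matched to the table by name, and 7 through the name table, while 16 had no match. No replicates were near-duplicates. The files give no gene lengths, so levels were not ranked between genes.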

Additional observations from a re-analysis of the deposited data

Results flagged for a closer look

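Among 17 sets of 6 sham values, levels or ratios, examined for a library far from the others, 1 stood out. Sham replicate 2 had 256 CPM of *cebpb*, and its gap to the next sham library, at 203 CPM, was larger than Dixon's critical value of 0.625 of the range allows. Chance gives such a gap in about 1 of 20 groups. Without this library the log2FC of *cebpb* for 2 hpi over sham remained past the threshold.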

How the results depend on the processing

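*cebpb* was called under all 20 alternatives and *spi1b* under 12, and no other factor was called under any. The number of factors called was 1 without the filter on low reads and with scaling by library size alone, and 1 to 2 when each library was left out. Over all genes, 443 were called with limma, 746 with DESeq2, 912 at an FDR threshold of 0.05, and 226 to 494 when each library was left out, with the fewest without 2 hpi replicate 4 and 264 without 2 hpi replicate 1. Of the genes in the related lists other than the 6 factors, 8 were called, against 13 with DESeq2 and 14 at an FDR threshold of 0.05. Scaling by library size alone moved the median log2FC of all genes by -0.11, and 57.0% of the genes it called were higher, against 77.2% with TMM, 89.2% with limma-voom and 64.3% at an FDR threshold of 0.05. The difference in the ratio of *spi1a* over *spi1b* was -0.47 to -0.29 when each library was left out, with an exact permutation p of 0.0357 to 0.143. Scaling by library size alone drops the TMM factors, which were 0.932 to 0.953 at 2 hpi and 0.976 to 1.06 in sham larvae. Why the factors differed between the groups, and the cause of the other shifts, was not tested. With the replicate number as a block, 632 genes and 2 factors were called, with an FDR of 0.000434 for *spi1b*. Sham replicates 3, 5 and 6 have no 2 hpi library of the same number and did not enter this difference between the groups. It rested on replicates 1, 2 and 4 alone, so that this fit is not a comparison over the same libraries. The study states that some injured and sham samples were made on the same day, but not that a number marks a day. The deviations of same-numbered libraries correlated at 0.131, 0.109 and 0.0245, against -0.111 to 0.0901 for libraries of different numbers. These values do not settle whether a number marks a pair, and the block was kept as an alternative.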
